A study of Mus musculus with 64 samples.

Results

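The 10 genes described here mark resident macrophages of mouse tissues: Marco, Cd5l, Clec4f, Vsig4, Timd4, Lyve1, Mrc1, Cd163, Adgre1 and Lyz2. They were picked by gene symbol out of 25107 symbols in the 4 tables of the series, after the rows of each symbol were summed. All 10 had values in liver, heart and inguinal white fat, and 9 had values in lung, where Clec4f was not analysed. The filter on low values was passed by 10 of them in liver, 7 in heart (not Marco, Cd5l or Clec4f), 10 in fat and 8 in lung (not Vsig4).

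Resident macrophages settle in tissues largely before birth, renew themselves locally and take on a program set by the organ. Kupffer cells, the macrophages of the liver sinusoids, clear particles, complement-coated microbes and old red cells from portal blood. Fat and heart hold macrophages along their vessels, and the lung has alveolar macrophages in its air spaces. Among the markers, Marco and Cd163 are scavenger receptors, Marco for bacteria and particles and Cd163 for haemoglobin bound to haptoglobin, and Mrc1 is the mannose receptor. Clec4f is a lectin of rodent Kupffer cells, Vsig4 a receptor for complement fragments, and Timd4 a receptor for phosphatidylserine on dying cells. Lyve1 binds hyaluronan and is made by lymphatic and liver sinusoidal endothelium as well as by perivascular macrophages, and Mrc1 is shared with the same endothelia. Cd5l is a protein secreted by macrophages, Adgre1 an adhesion receptor used as a general macrophage marker, and Lyz2 the lysozyme of macrophages, granulocytes and alveolar type II cells. Lyz2 has a near-identical neighbour, Lyz1, and how the authors' counting divided reads between them is not stated in the labels, so its level is uncertain to that extent.

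By the positions given in the fat and lung tables, whose build is not named there, Marco lies on chromosome 1 from 120402267 to 120432754, Cd5l on chromosome 3 from 87265188 to 87278382, Lyve1 on chromosome 7 from 110449814 to 110462161, Adgre1 on chromosome 17 from 57665686 to 57790530 and Lyz2 on chromosome 10 from 117113446 to 117118178. Promoter windows of 300 bases, 250 before and 50 after the annotated start, were available from RefSeq (build GRCm38.p6) for 8 of the 10 genes. Their coordinates do not match the positions above for the same genes, so distances between the 2 sets have no meaning. The windows of Marco and Cd5l are shown because these were the 2 markers called in liver. Capitals mark matches to GAGGAA or its reverse complement TTCCTC, the core bound by PU.1, the factor on which macrophages depend. The Marco window is chr1:120504975-120505274 on the minus strand, and the Cd5l window is chr3:87357631-87357930 on the plus strand.
Marco: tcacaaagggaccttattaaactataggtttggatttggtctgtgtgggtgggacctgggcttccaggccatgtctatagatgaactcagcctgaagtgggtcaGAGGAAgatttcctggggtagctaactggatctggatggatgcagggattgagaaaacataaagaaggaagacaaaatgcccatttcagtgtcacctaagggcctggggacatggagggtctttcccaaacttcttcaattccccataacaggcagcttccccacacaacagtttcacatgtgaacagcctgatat
Cd5l: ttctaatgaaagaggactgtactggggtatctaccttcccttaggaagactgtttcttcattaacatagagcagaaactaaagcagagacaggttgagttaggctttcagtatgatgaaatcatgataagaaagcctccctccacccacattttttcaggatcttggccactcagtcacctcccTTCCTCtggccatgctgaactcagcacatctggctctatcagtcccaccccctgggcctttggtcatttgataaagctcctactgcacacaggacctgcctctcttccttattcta

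The first base of the match lay at -146 from the start in Marco and at -66 in Cd5l. Searched on both strands, GAGGAA was present in 4 of the 8 windows, those of Marco, Cd5l, Mrc1 and Vsig4, and in 28.3% of 32851 promoters of the same length. The E-box CACGTG, to which the product of Bmal1 and its partners bind, was present in 0 of the 8 windows and in 7.15% of all promoters. The nuclear receptor half-site AGGTCA was present in 2 of the 8, Clec4f and Timd4, and in 16.3% of all. The MAF half-site TGCTGAC was present in Timd4 alone and in 4.67% of all, and TATAAA in 0 of the 8 and 13.6% of all. In the Timd4 window the AGGTCA match and the MAF match did not overlap. These are matches of letters in a window and not measured sites.

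RNA was sequenced from 64 mouse libraries: 20 of liver and 20 of heart, with 5 per group, and 12 of inguinal white fat and 12 of lung, with 3 per group. All mice had the genotype labelled Cre+:iMSBmal1 fl/fl, in which the clock transcription factor Bmal1 can be removed from skeletal muscle by an inducible Cre. The groups were trained knockout (treatment iMSBMal1KO + Exercise Training), sedentary knockout (iMSBmal1KO + No Exercise), trained vehicle (Vehicle + Exercise Training) and sedentary vehicle (Vehicle + No Exercise). Training meant 6 weeks of daily treadmill running, and tissues were collected at 48 hours from the final bout. The agent that induces the knockout cannot be told apart from the knockout itself, since the controls were vehicle-treated, and the age and sex of the mice are not given in the sources used here. The labels name no animal behind a library, so p-values measure the spread between these libraries.

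Estimated depth in megareads was 12.4 to 20.7 in liver, 14.1 to 20.96 in heart, 18.97 to 31.2 in fat and 18.7 to 35.7 in lung. Levels are given as CPM, on the scale of reads per megaread, and SDs are over the libraries of a group. Each tissue carried its own markers, with summed levels of 68561 to 105087 CPM for 8 hepatocyte genes in liver, 30465 to 37085 for 6 cardiomyocyte genes in heart, 15942 to 23605 for 6 adipocyte genes in fat and 43275 to 87790 for 6 epithelial genes in lung. Skeletal muscle, where Bmal1 was removed, was not analysed here. In liver, Arntl, the symbol of Bmal1, averaged 0.777 ± 0.367 CPM in trained knockout, 0.952 ± 0.439 in sedentary knockout, 2.48 ± 0.779 in trained vehicle and 1.66 ± 0.798 in sedentary vehicle mice (SD, n = 5 each). In the same order of groups it averaged 0.896 ± 0.201, 0.856 ± 0.209, 0.646 ± 0.389 and 0.852 ± 0.475 CPM in heart (n = 5 each), 2.14 ± 0.322, 2.10 ± 0.894, 2.45 ± 0.635 and 1.57 ± 0.289 in fat and 2.58 ± 0.582, 1.81 ± 0.123, 3.24 ± 0.0425 and 2.73 ± 0.187 in lung (n = 3 each). Its knockout means were not below the vehicle means in heart or in sedentary fat, and were below them elsewhere. In trained livers Arntl ranged from 0.27 to 1.14 CPM in knockout and from 1.23 to 3.22 CPM in vehicle mice, with no overlap. In sedentary lungs it ranged from 1.70 to 1.95 and from 2.52 to 2.88 CPM, again with no overlap. Otherwise its knockout and vehicle ranges overlapped. The part of Arntl in the marker values was not tested. Some libraries stood apart by carrying transcripts of another tissue, with a marker sum of at least 50 CPM that was also more than 10 times the median sum of the tissue. These were trained knockout liver 2 (skeletal muscle genes, 129 CPM), trained knockout heart 5, trained vehicle heart 1 and sedentary vehicle heart 3 (adipocyte genes, 155, 72.4 and 86.8 CPM), trained vehicle heart 5 (hepatocyte genes, 96.3 CPM), and trained knockout fat 2 and sedentary knockout fat 1 (hepatocyte genes, 2272 and 319 CPM). Calls that rest on them are given with and without them.

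Within a tissue the markers differed widely in level. Per kilobase of transcript, with lengths from the fat table, Lyz2 was the most abundant of the members in each tissue, at a median over libraries of 33.5 CPM per kilobase in liver, 99.4 in heart, 1244 in fat and 4242 in lung. In liver the next in order were Cd5l at 21.3, Clec4f at 17.1 and Vsig4 at 7.46, and the lowest was Lyve1 at 0.783 CPM per kilobase. In liver Lyz2 ranged from 18.2 to 94.1, Cd5l from 7.18 to 71.1, Clec4f from 9.24 to 39.4 and Vsig4 from 3.29 to 21.6. Each range overlapped that of the next. These genes were measured in the same libraries, and their order within each library was not compared. In fat the order after Lyz2 was Mrc1 at 39.7, Lyve1 at 26.9, Adgre1 at 25.8 and Cd163 at 22.6 CPM per kilobase. The range over libraries of Lyve1 (19.8 to 51.5) overlapped those of Mrc1 (25.9 to 62.7), Adgre1 (14.4 to 43.8) and Cd163 (15.2 to 30.6). Here too the order within each library was not compared. In heart Lyve1 at 6.21, Cd163 at 3.96 and Mrc1 at 3.53 CPM per kilobase followed Lyz2, and the range of Cd163 (2.71 to 4.92) overlapped those of Lyve1 (4.46 to 9.03) and Mrc1 (2.698 to 4.63). In lung Lyve1 at 103 CPM per kilobase came next, followed by Mrc1 at 8.36. These orders hold within a tissue, since the tables were normalized separately.

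The Kupffer cell gene Clec4f was abundant in liver and near 0 in heart and in most fat libraries. It ranged from 22.2 to 94.5 CPM in the 20 liver libraries. In heart it ranged from 0 to 0.522 CPM, with no read in 7 of 20 libraries, and in fat it was at or below 0.463 CPM in 11 of 12 libraries. The exception was trained knockout fat 2 at 5.85 CPM, which held 113 of the 116 reads of its group and had the 2272 CPM of hepatocyte transcripts. Marco and Cd5l were near 0 in heart, at most 0.495 CPM and 0.275 CPM, and both of those maxima were in trained knockout heart 5.

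Each tissue gave 5 comparisons. Training was compared with rest within the vehicle and within the knockout mice, knockout with vehicle within the sedentary and within the trained mice, and the training effect of the knockout mice with that of the vehicle mice. A gene is called here when its p adjusted by Benjamini-Hochberg over all genes tested is under 0.05, by limma in liver and heart and by edgeR's quasi-likelihood test in fat and lung. Comparisons that share a group of libraries are not independent, and their values are only set side by side. Fewer macrophages in a tissue and less RNA of a marker per macrophage cannot be told apart in these bulk libraries.

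**Figure D1:**
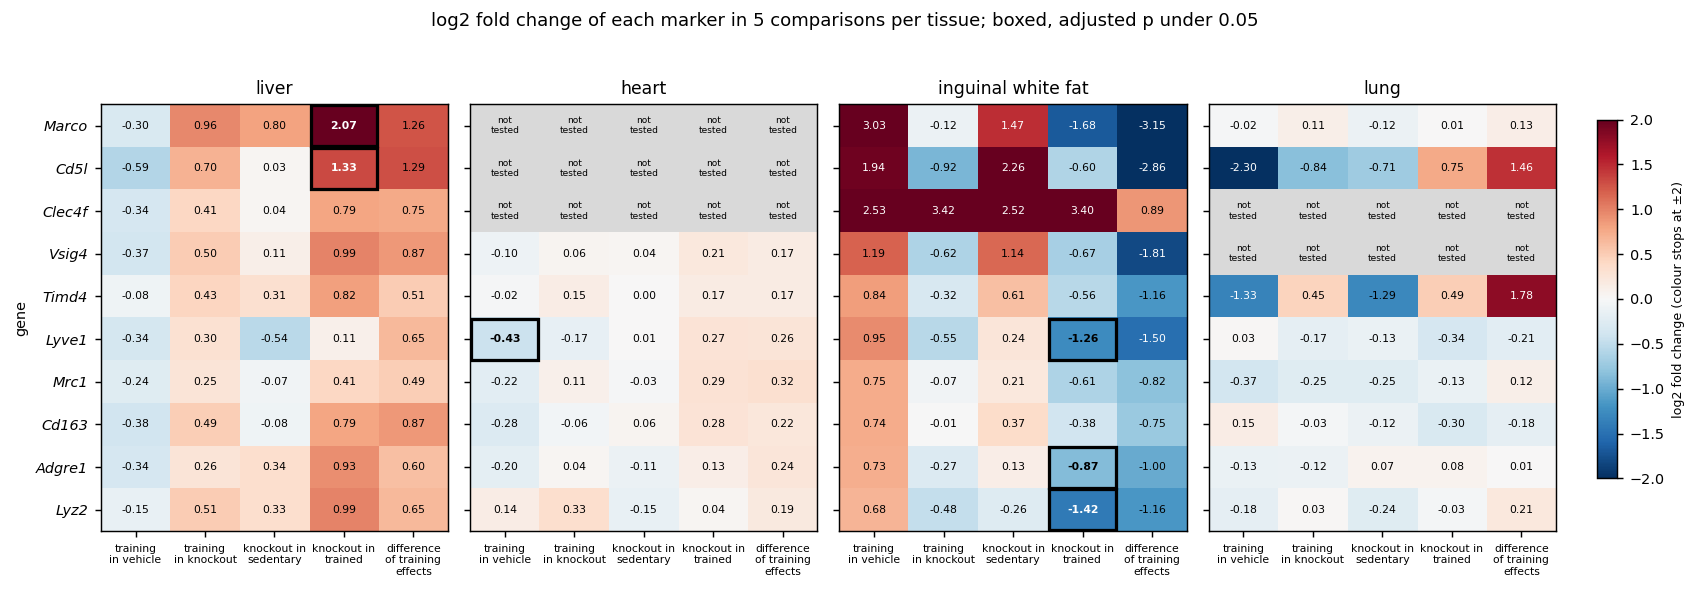
Log2 fold change of the 10 markers (rows) in the 5 comparisons (columns) of each tissue, with trained over sedentary or knockout over vehicle, coloured from -2 (blue) to 2 (red). Boxes mark adjusted p under 0.05: Marco and Cd5l in liver (knockout in trained), Lyve1 in heart (training in vehicle), and Lyve1, Adgre1 and Lyz2 in fat (knockout in trained); grey cells were not tested.

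In livers of trained mice, the scavenger receptor Marco and the secreted Cd5l were higher in knockout than in vehicle mice. They were 2 of the 10 markers, and 337 of 12817 genes, 2.63%, were called in this comparison (1.55% higher and 1.08% lower). At an unadjusted p under 0.05 stood 9 of the 10 markers, all higher, and 21.9% of all genes (11.7% higher). Many of these markers moved together over the liver libraries, so they are not 9 independent results. Marco stood at 3.49, 25.8, 9.47, 7.48 and 26.1 CPM in trained knockout livers, against 0.577, 2.02, 1.59, 1.61 and 6.00 CPM in trained vehicle livers. Trained knockout livers 2 and 5 were the highest, 4 of 5 trained knockout livers lay above the trained vehicle range, and the groups overlapped through trained knockout liver 1 and trained vehicle liver 5. The log2 fold change of Marco, on the scale of log2(CPM + 1), was 2.07 (SE 0.51; limma adjusted p = 0.0375), or 4.19-fold. It was 2.55 with a pseudocount of 0.1 (SE 0.62; limma adjusted p = 0.0354) and 2.67, or 6.37-fold, with edgeR on estimated reads (SE 0.65; adjusted p = 0.0409). In reads the Marco values rest on 55 to 517 per trained knockout library and 11 to 74 per trained vehicle library.

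Cd5l stood at 53.4, 120, 41.8, 51.4 and 145 CPM in trained knockout livers, against 14.6, 44.9, 25.1, 28.9 and 37.7 CPM in trained vehicle livers. Libraries 2 and 5 were again the highest, and 4 of 5 trained knockout livers lay above the trained vehicle range. Its log2 fold change was 1.33 (SE 0.34; limma adjusted p = 0.0432). The calls of both genes were kept without trained vehicle liver 2 or without trained vehicle liver 5, and lost without any other of the 10 libraries. The adjusted p of Marco was then 0.0513 to 0.0992 with log2 fold changes of 1.78 to 2.43, and that of Cd5l was 0.0513 to 0.112 with log2 fold changes of 1.08 to 1.52. Without trained knockout liver 2, the library with skeletal muscle transcripts, Marco was at 1.79 (adjusted p = 0.0725) and Cd5l at 1.15 (adjusted p = 0.0807), and 0 of 10 markers and 172 of all genes were called. With no filter on low genes, which raised the number tested, the adjusted p of Marco was 0.067 and that of Cd5l 0.073.

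The other 8 markers were not called by limma in trained livers, and their estimates had the same sign. Clec4f stood at 47.8, 84.5, 34.0, 40.7 and 94.5 CPM in trained knockout livers, against 22.2, 42.5, 28.0, 31.9 and 37.7 CPM in trained vehicle livers (log2 0.79, SE 0.27; limma adjusted p = 0.0979). Vsig4 stood at 12.5, 26.0, 10.6, 9.17 and 30.9 CPM, against 4.72, 12.3, 5.87, 6.02 and 11.3 CPM (log2 0.99, SE 0.31; limma adjusted p = 0.0807). In both genes trained knockout livers 2 and 5 were the highest, and the groups overlapped. Adgre1 averaged 10.3 ± 4.93 CPM in trained knockout and 4.65 ± 1.55 in trained vehicle livers (log2 0.93, SE 0.28; limma adjusted p = 0.0686). Lyz2 averaged 60.8 ± 31.3 and 27.8 ± 6.84 CPM in these groups (log2 0.99, SE 0.28; limma adjusted p = 0.0607). With edgeR on estimated reads, which called 338 genes in all, Lyz2 was called (log2 1.15, SE 0.29, edgeR adjusted p = 0.0445).

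Timd4 averaged 5.06 ± 3.12 CPM in trained knockout and 2.23 ± 1.08 in trained vehicle livers, and Cd163 averaged 15.6 ± 6.83 and 8.27 ± 2.66 CPM (n = 5 each). Mrc1 averaged 31.4 ± 3.61 and 23.6 ± 4.78 CPM, with log2 0.41 (SE 0.15; limma adjusted p = 0.107). Lyve1 averaged 2.28 ± 0.789 and 1.99 ± 0.417 CPM, with log2 0.11 (SE 0.22; limma adjusted p = 0.816). In Mrc1 and Lyve1, trained knockout livers 2 and 5 were not together the highest of their group. Mrc1 was at 29.6 and 36.1 CPM there and at 26.5 to 33.0 CPM in the other 3. The 36.1 CPM of trained knockout liver 5 was the highest Mrc1 of all 20 livers. The median log2 fold change over the 10 markers was 0.88, against -0.01 over all 12817 genes.

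**Figure D2:**
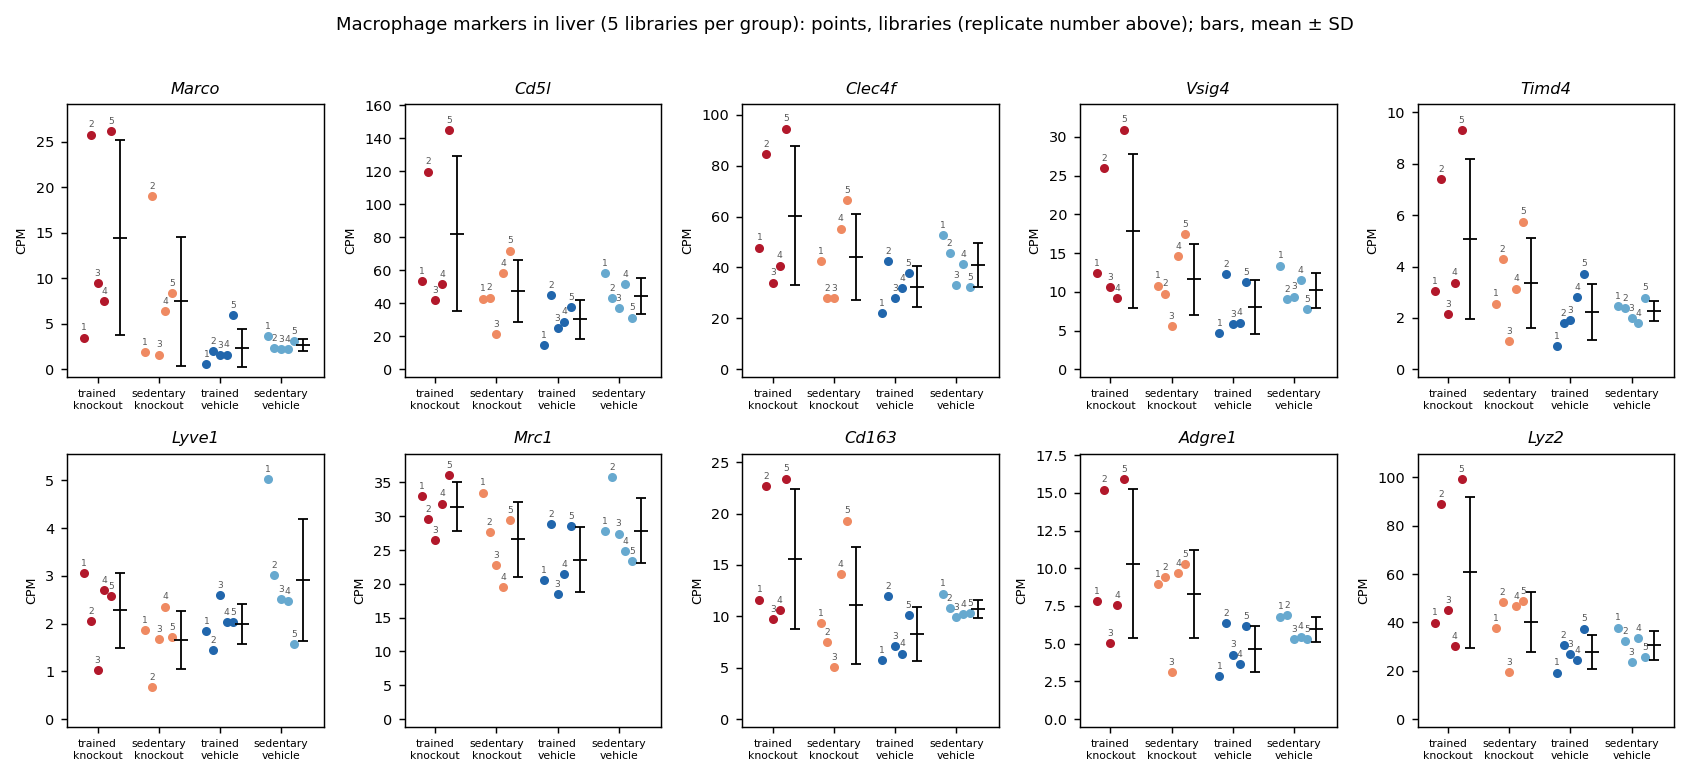
CPM of each marker in the 20 liver libraries by group (points, with the replicate number above each; bar, mean ± SD). Trained knockout libraries 2 and 5 are the highest points of their group for Marco, Cd5l, Clec4f, Vsig4, Timd4, Cd163, Adgre1 and Lyz2, but not for Lyve1; for Mrc1 library 5 is the highest and library 2 is not.

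Genes of related lists were examined in the same comparison. Of 18 general macrophage genes tested, 2 were called higher and 0 lower: Msr1, a scavenger receptor (log2 0.91, SE 0.23; limma adjusted p = 0.0414), and Mpeg1, a pore-forming protein of phagocytes (log2 0.91, SE 0.24; limma adjusted p = 0.0475). Of 9 genes of the Kupffer cell program tested, the iron exporter Slc40a1 was called higher (log2 0.91, SE 0.14; limma adjusted p = 0.0105). The median log2 fold change was 0.71 over the general macrophage genes and 0.46 over the Kupffer cell program. The median was 0.11 over 9 sinusoidal endothelial genes tested, 0.46 over 5 genes of macrophage growth factors and their receptors and 0.31 over 4 chemokine and cytokine genes. Of these 3 lists limma called 0 genes, and 0, 2 and 1 of their genes had an unadjusted p under 0.05. Without trained knockout liver 2, Slc40a1 was called (log2 0.95; adjusted p = 0.0122), while Msr1 was at 0.83 (adjusted p = 0.0730) and Mpeg1 at 0.86 (adjusted p = 0.0755). The lists were chosen with earlier results of these data known, and they describe the same libraries.

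Other cell types also stood differently in trained knockout livers 2 and 5. The summed level of 6 neutrophil genes was 2.80, 5.70, 1.56, 1.08 and 5.61 CPM in trained knockout livers, against 0.700 to 1.94 CPM in trained vehicle livers. The sum of 6 erythroid genes was 2378 and 2240 CPM in trained knockout livers 2 and 5, against 1005 to 1318 CPM in the other 3 and 703 to 1690 CPM in trained vehicle livers. The sum of 8 hepatocyte genes was 68561 and 72382 CPM in the same 2 livers, against 75111 to 96830 CPM in the other 3 and 81279 to 105087 CPM in trained vehicle livers. The part of these differences in the marker values was not tested.

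In the remaining comparisons of liver, 0 of 10 markers were called. For training in knockout mice 0.0234% of genes were called, and 0 of the 10 markers had an unadjusted p under 0.05, against 11.8% of all genes. Marco averaged 14.5 ± 10.7 CPM in trained knockout and 7.46 ± 7.09 CPM in sedentary knockout livers, where library 2 stood at 19.01 and the other 4 at 1.61 to 8.40 CPM (log2 0.96, SE 0.51; limma adjusted p = 0.470). For training in vehicle mice 0% of genes were called, and again 0 markers had an unadjusted p under 0.05, against 6.9% of all genes. All 10 estimates were below 0, from -0.59 in Cd5l to -0.08 in Timd4, with a median of -0.34 over the markers and 0.00 over all genes. Cd5l averaged 30.2 ± 11.6 CPM in trained vehicle and 44.3 ± 10.8 CPM in sedentary vehicle livers (log2 -0.59, SE 0.34; limma adjusted p = 0.793).

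For knockout in sedentary mice 0% of genes were called, and 1 marker and 4.81% of all genes had an unadjusted p under 0.05. This was Lyve1, at 1.66 ± 0.612 CPM in sedentary knockout and 2.92 ± 1.28 CPM in sedentary vehicle livers (log2 -0.54, SE 0.22; limma adjusted p = 0.996). For the difference between the training effects 0.0078% of genes were called. The estimates of all 10 markers were above 0, with a median of 0.70, and 3 had an unadjusted p under 0.05, as had 10.2% of all genes. The smallest of these p-values was that of Cd5l (log2 difference 1.29, SE 0.48; limma adjusted p = 0.363). edgeR on estimated reads also called 0 markers in each of these 4 comparisons.

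Across the 20 liver libraries, 3 markers shared their closest gene. Cd5l, Clec4f and Vsig4 were most like C1qb, a complement subunit made by macrophages, with a Pearson r of log2 level of 0.97, 0.97 and 0.98, and Cd163 was most like Vsig4 with r = 0.95. Adgre1 was most like Csf1r, the receptor for the macrophage growth factor, with r = 0.93. Marco was most like Lyz2 (r = 0.89) and Timd4 (r = 0.87), and its r with Cd5l was 0.79. Mrc1 was most like Clec14a (r = 0.91), a gene of endothelium. Lyve1 was most like Cep350, with r = 0.74, and no member of the macrophage lists was among its 3 closest genes. These values describe 20 libraries that share groups and depth, and they hold no test.

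In inguinal white fat of trained mice, 3 markers were lower in knockout than in vehicle mice: the hyaluronan receptor Lyve1, lysozyme Lyz2 and the adhesion receptor Adgre1. In this comparison 685 of 15448 genes, 4.43%, were called (0.842% higher and 3.59% lower). Lyve1 stood at 57.8, 51.7 and 55.3 CPM in trained knockout fat, against 134, 128 and 132 CPM in trained vehicle fat. The groups did not overlap, and each was narrow. The log2 fold change was -1.26 (SE 0.14; edgeR adjusted p = 0.0231). Lyz2 stood at 1195, 848 and 610 CPM in trained knockout fat, against 2246, 2658 and 2187 CPM in trained vehicle fat (log2 -1.42, SE 0.27; edgeR adjusted p = 0.0369). Adgre1 stood at 94.7, 73.2 and 46.6 CPM in trained knockout fat, against 129, 142 and 122 CPM in trained vehicle fat (log2 -0.87, SE 0.21; edgeR adjusted p = 0.0466). In both, trained knockout library 1 was the highest and library 3 the lowest of their group, and the groups did not overlap.

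The mannose receptor gene Mrc1 was not called, at 226, 220 and 138 CPM in trained knockout fat, against 274, 333 and 284 CPM in trained vehicle fat (log2 -0.61, SE 0.17; edgeR adjusted p = 0.0651). Its groups did not overlap either, so that 4 of the 10 markers lay wholly below the trained vehicle range, as did 17.6% of all genes. Cd163 stood at 107, 111 and 67.3 CPM in trained knockout fat, against 136, 125 and 111 CPM in trained vehicle fat (log2 -0.38, SE 0.19; edgeR adjusted p = 0.241). Vsig4 averaged 8.65 ± 2.44 CPM in trained knockout and 13.7 ± 3.69 in trained vehicle fat, and Timd4 averaged 5.35 ± 0.955 and 7.86 ± 1.73 CPM (n = 3 each). The median log2 fold change over the 10 markers was -0.64, against 0.00 over all genes. The 10 include Clec4f, which was near 0 in most fat libraries.

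Leaving out 1 library often ended these calls, at 2 against 3 libraries. All 3 calls were kept without trained knockout fat 1 (Lyve1 log2 -1.30, Lyz2 -1.70, Adgre1 -1.13) and lost without any other of the 6 libraries. Over those 5 fits Lyve1 was at -1.17 to -1.28 (adjusted p = 0.0562 to 0.180), Lyz2 at -1.18 to -1.47 (adjusted p = 0.0805 to 0.180) and Adgre1 at -0.61 to -0.92 (adjusted p = 0.0963 to 0.180). Without trained knockout fat 2 and sedentary knockout fat 1, the libraries with hepatocyte transcripts, Lyve1 was called (log2 -1.20, SE 0.10; adjusted p = 0.00707), while Lyz2 was at -1.37 (adjusted p = 0.0803) and Adgre1 at -0.87 (adjusted p = 0.108) and 1 gene in all was called. DESeq2 called 4 markers and 12.9% of the genes to which it gave an adjusted p, while Adgre1 was lost with RLE factors (adjusted p = 0.0501), with no filter (0.0522) and with only the compared groups (0.0862).

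**Figure D3:**
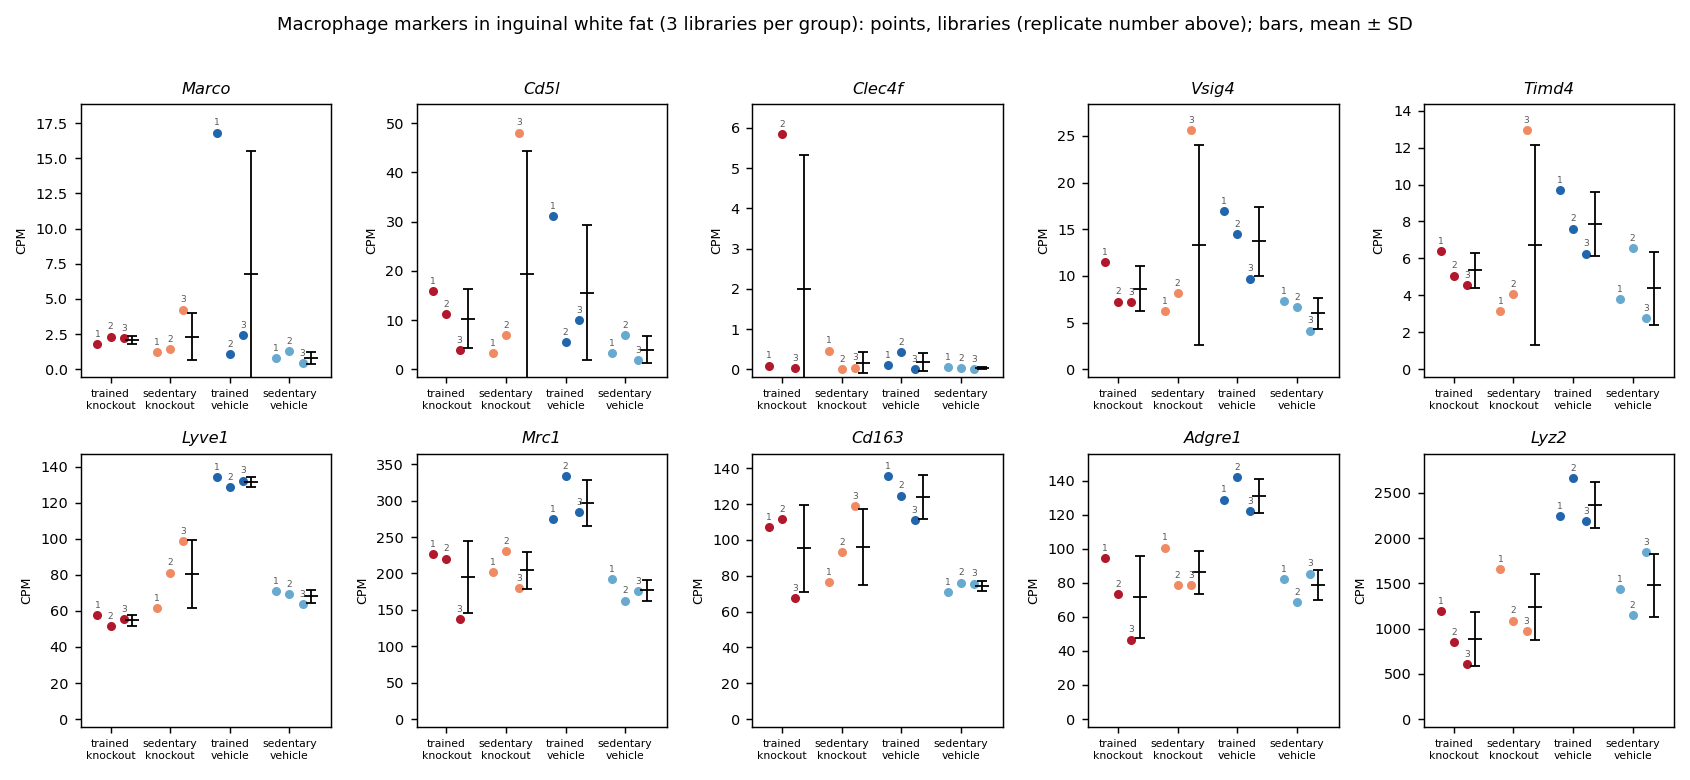
CPM of each marker in the 12 fat libraries by group (points, with the replicate number above each; bar, mean ± SD, cut at the axis where it reaches below 0). Lyve1, Mrc1, Adgre1 and Lyz2 have all 3 trained vehicle points above every trained knockout point; Clec4f is carried by trained knockout library 2 at 5.85 CPM, and Marco by trained vehicle library 1 at 16.8 CPM.

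Training in vehicle mice shares the trained vehicle libraries with the comparison above, so its values are not independent of it. edgeR called 0 of 10 markers and 0% of all genes, while 7 markers had an unadjusted p under 0.05, all higher, against 2785 of all 15448 genes, 1581 of them higher. DESeq2 called 5 markers and 5.57% of genes. Lyve1 averaged 132 ± 2.89 CPM in trained vehicle and 68.0 ± 3.703 CPM in sedentary vehicle fat (log2 0.95, SE 0.13; edgeR adjusted p = 0.103). Mrc1 averaged 297 ± 31.7 and 177 ± 14.6 CPM, Cd163 averaged 124 ± 12.3 and 74.2 ± 2.78 CPM, and Adgre1 averaged 131 ± 10.2 and 78.7 ± 8.88 CPM in these groups (n = 3 each). Lyz2 averaged 2364 ± 256 CPM in trained vehicle and 1477 ± 350 CPM in sedentary vehicle fat. In 6 markers, these 5 and Vsig4, all trained vehicle libraries lay above all sedentary vehicle libraries, as in 16.1% of all genes. The 10 estimates were all above 0, with a median of 0.90, against 0.03 over all genes. They include Clec4f, at a median of 0.0468 CPM over the fat libraries, too low to bear on its direction. They also include Marco, whose estimate ranged from 1.09 to 3.53 as single libraries were left out. The sum of 6 adipocyte genes was 15942, 19199 and 18212 CPM in trained vehicle fat, against 22773, 23092 and 22831 CPM in sedentary vehicle fat, with no overlap. It was 16861, 23605 and 22931 CPM in trained knockout fat and 16937 to 17919 CPM in sedentary knockout fat. Its part in the marker values was not tested.

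For training in knockout mice, Lyve1 stood at 57.8, 51.7 and 55.3 CPM in trained knockout fat, against 61.5, 81.3 and 98.8 CPM in sedentary knockout fat (log2 -0.55, SE 0.13; edgeR adjusted p = 0.127). It was the 1 of 10 markers with an unadjusted p under 0.05, against 16.3% of all genes, and the 1 marker wholly below its comparison group, as were 10% of all genes, and edgeR called 0 markers and 0% of genes. The difference between the training effects was -1.50 for Lyve1 (SE 0.19; edgeR adjusted p = 0.0555). Here 7 markers had an unadjusted p under 0.05, all with lower estimates, against 18.4% of all genes, 1702 of them lower. edgeR again called 0 markers and 0% of genes, while DESeq2 called 4 markers and 5.04% of genes. Without the libraries carrying hepatocyte transcripts the Lyve1 difference was -1.61 (SE 0.13; adjusted p = 0.00847). Of the 12 fits that left out 1 library it was called in 2, without sedentary knockout fat 1 (-1.66; adjusted p = 0.00147) and without trained knockout fat 1 (-1.54; adjusted p = 0.0260). In the other 10 it was at -1.29 to -1.53 (adjusted p = 0.0849 to 0.260).

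Knockout in sedentary mice gave 0 called markers, against 0.557% of all genes (0.427% higher and 0.129% lower), and 2 markers had an unadjusted p under 0.05, both higher, against 17.9% of all genes (10.3% higher). Cd5l stood at 3.31, 6.98 and 48.1 CPM in sedentary knockout fat, against 3.25, 6.98 and 1.83 CPM in sedentary vehicle fat (log2 2.26, SE 1.004; edgeR adjusted p = 0.270). Vsig4 stood at 6.20, 8.14 and 25.6 CPM, against 7.27, 6.65 and 4.15 CPM (log2 1.14, SE 0.48; edgeR adjusted p = 0.243). In both genes sedentary knockout library 3 alone was high, as it was for Timd4 at 12.9 CPM, against 3.14 and 4.07 CPM in the other 2. In 1 of the 10 markers, Cd163, all sedentary knockout libraries lay above all sedentary vehicle libraries, by 76.3 against 76.1 CPM at the nearest, and so they did in 11.5% of all genes. DESeq2 called 0 markers and 6.03% of genes.

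Other macrophage genes were lower in the fat of trained knockout mice than of trained vehicle mice. Of 19 general macrophage genes, 8 were called lower and 0 higher, among them C1qc (log2 -0.86, SE 0.14; edgeR adjusted p = 0.0363), C1qa (log2 -0.71, SE 0.13; adjusted p = 0.0363), C1qb (log2 -0.85, SE 0.16; adjusted p = 0.0363), subunits of the complement initiator C1q, and Cybb, a subunit of the phagocyte oxidase (log2 -1.22, SE 0.25; adjusted p = 0.0385). All 19 estimates were below 0, with a median of -0.85. Of 10 genes of the Kupffer cell program, 3 were called lower: Siglec1, a sialic acid receptor (log2 -1.26, SE 0.24; adjusted p = 0.0365), the lectin Fcna (log2 -1.76, SE 0.37; adjusted p = 0.0385) and the folate receptor Folr2 (log2 -0.86, SE 0.19; adjusted p = 0.0418). This list takes its name from liver. Clec4f had a median of 0.0468 CPM over the fat libraries, so the list is not read as Kupffer cells there. Of the macrophage growth factor genes, Csf1 (log2 -0.45, SE 0.10; adjusted p = 0.0432) and its receptor Csf1r (log2 -0.76, SE 0.17; adjusted p = 0.0395) were called lower, 2 of 5 tested. Of 10 chemokine and cytokine genes tested, Ccl6 was called lower (log2 -0.94, SE 0.18; adjusted p = 0.0367). All of these calls were lost without the libraries with hepatocyte transcripts. The 8 general macrophage genes were then at log2 -1.29 to -0.71 (edgeR adjusted p = 0.0791 to 0.111), with all 19 estimates below 0 and a median of -0.82. The 3 genes of the Kupffer cell program were at -1.68 to -0.78 (adjusted p = 0.0791 to 0.121), Csf1 at -0.39 (adjusted p = 0.131), Csf1r at -0.71 (adjusted p = 0.111) and Ccl6 at -1.07 (adjusted p = 0.0791).

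Genes of other cells were called beside them. Of 12 lymphocyte genes, 4 were called lower in trained knockout fat, among them the B cell genes Cr2, Fcer2a and Cd22, with log2 fold changes of -3.32, -4.04 and -2.51 (edgeR adjusted p = 0.0430, 0.0465 and 0.0473). Without the libraries with hepatocyte transcripts 0 of the 4 were called, with these 3 at -3.07, -3.55 and -2.28 (adjusted p = 0.116, 0.109 and 0.108). The summed level of the 12 was 52.8, 41.5 and 32.0 CPM in trained knockout fat, against 263, 62.6 and 124 CPM in trained vehicle fat, and it was 33.1 to 49.5 CPM in sedentary knockout and 37.6 to 53.1 CPM in sedentary vehicle fat. The inguinal fat pad holds a lymph node, and its part in the marker values was not tested. Trained vehicle fat 2, with the lowest lymphocyte sum of its group, had the highest Lyz2, Adgre1 and Mrc1 of all 12 libraries. Trained vehicle fat 1, with the highest lymphocyte sum, had the highest Marco, Lyve1 and Cd163 of all 12 libraries, at 16.8, 134 and 136 CPM. Without that library the log2 fold change of Marco for knockout in trained mice was 0.25 in place of -1.68. Over the 12 libraries Marco was most like the B cell gene Ms4a1, with r = 0.92.

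Of 6 lymphatic endothelial genes, 1 was called lower in trained knockout fat, Pdpn (log2 -0.74, SE 0.13; edgeR adjusted p = 0.0363), which fibroblasts also express. Their summed level was 143, 109 and 117 CPM in trained knockout fat, against 353, 156 and 231 CPM in trained vehicle fat. Of 8 sinusoidal endothelial genes tested, Stab1, which macrophages also express, was called lower (log2 -0.86, SE 0.19; adjusted p = 0.0392), while the estimates of 6 were above 0. Of 8 alveolar macrophage genes tested Car4, a carbonic anhydrase also found in capillaries, was called higher (log2 1.16, SE 0.24; adjusted p = 0.0385). Without the libraries with hepatocyte transcripts these 3 calls were lost, with Pdpn at -0.74 (adjusted p = 0.0834), Stab1 at -0.80 (adjusted p = 0.110) and Car4 at 1.07 (adjusted p = 0.0977). The part of lymphatic vessels in the Lyve1 values was not tested. Over the 12 libraries Lyve1 was most like Tmem108 (r = 0.91) and Tcn2 (r = 0.90), Mrc1 was most like Dab2 (r = 0.99) and C1qb (r = 0.93), and Lyz2 was most like Snx5 and Tlr8 (r = 0.99 each).

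**Figure D4:**
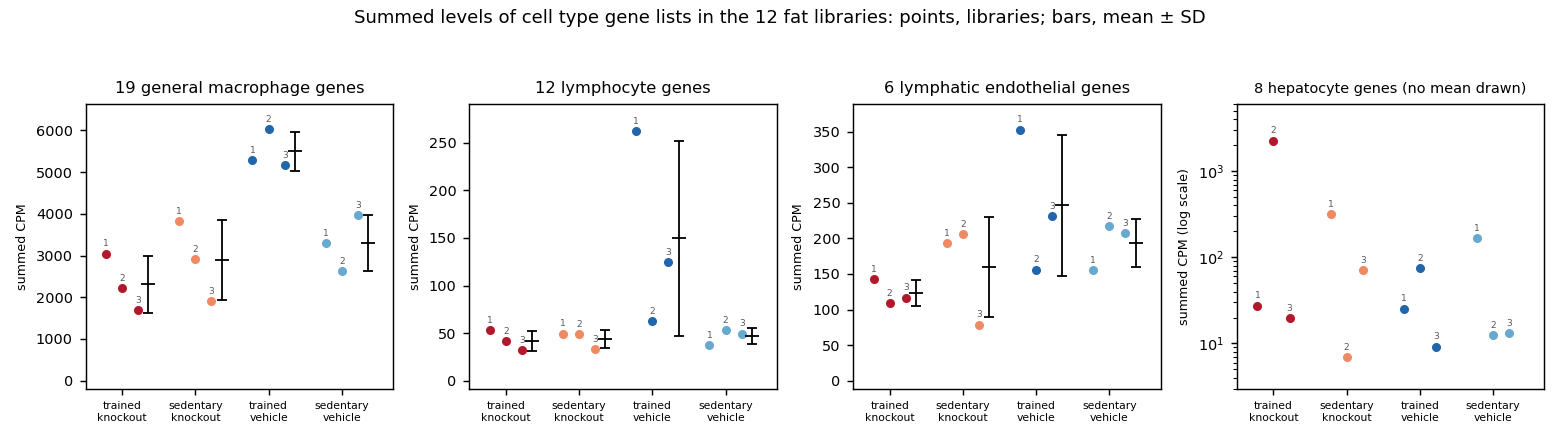
Summed CPM of 4 gene lists in the 12 fat libraries by group (points, with the replicate number above each; bar, mean ± SD; the hepatocyte panel has a log axis and no mean). Trained vehicle fat is high for the 19 general macrophage genes in all 3 libraries and for the 12 lymphocyte genes in libraries 1 and 3, and trained knockout library 2 stands at 2272 CPM of hepatocyte transcripts.

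In heart, training in vehicle mice went with lower Lyve1, the 1 of 7 markers called, in a comparison in which 8.27% of all genes were called (4.72% higher and 3.55% lower). Lyve1 stood at 14.2, 11.6, 13.6, 15.7 and 13.4 CPM in trained vehicle hearts, against 21.3, 20.2, 20.5, 16.2 and 16.2 CPM in sedentary vehicle hearts. The groups did not overlap, and in 2.8% of all genes the trained vehicle hearts lay wholly below. The log2 fold change was -0.43 (SE 0.10; limma adjusted p = 0.0123), and the call was kept in all 10 fits that left out 1 library. Without the libraries carrying adipocyte or hepatocyte transcripts it was -0.41 (SE 0.13; adjusted p = 0.0737), and 0 markers were called.

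The scavenger receptor Cd163 averaged 14.7 ± 2.83 CPM in trained vehicle and 17.9 ± 1.41 CPM in sedentary vehicle hearts (log2 -0.28, SE 0.10; limma adjusted p = 0.0850). Mrc1 averaged 17.02 ± 1.71 and 19.98 ± 2.68 CPM (log2 -0.22, SE 0.09; limma adjusted p = 0.138). Lyz2 averaged 112 ± 8.01 and 101 ± 9.88 CPM, the 1 marker of the 7 with an estimate above 0 (log2 0.14, SE 0.07; limma adjusted p = 0.188). Adgre1, Vsig4 and Timd4 had estimates of -0.20, -0.10 and -0.02. At an unadjusted p under 0.05 stood 4 of the 7, with 1 of them higher, and 24.5% of all genes. The median over the 7 tested markers was -0.20, against 0.00 over all genes. Timd4 and Vsig4 rest on at most 37 and 49 reads per heart library.

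Of 6 lymphatic endothelial genes, Ccl21a, the chemokine of lymphatic vessels, was called higher in trained vehicle hearts (log2 0.53, SE 0.14; limma adjusted p = 0.0207), and 0 were called lower. Their summed level was 86.5 to 109 CPM in trained vehicle and 86.9 to 110 CPM in sedentary vehicle hearts. Of 19 general macrophage genes limma called 0, with 2 at an unadjusted p under 0.05 and a median of -0.02. Of 7 genes tested from the list named for Kupffer cells, Id3 was called higher (log2 0.25, SE 0.08; limma adjusted p = 0.0489), while Clec4f was at most 0.522 CPM in heart. Without the libraries carrying adipocyte or hepatocyte transcripts both calls were lost, with Ccl21a at 0.56 (adjusted p = 0.0514) and Id3 at 0.20 (adjusted p = 0.201). Of 5 erythroid genes tested, 4 were called higher, all of them globin genes, whose near-identical copies can share reads (log2 0.64 to 0.75; limma adjusted p = 0.00662 to 0.00805), and these 4 were also called without those libraries. The summed level of 6 erythroid genes was 2255 to 3556 CPM in trained vehicle hearts, against 1453 to 2014 CPM in sedentary vehicle hearts, with no overlap. It was 1967 to 3912 CPM in trained knockout and 2352 to 3297 CPM in sedentary knockout hearts, and its part in the Lyve1 value was not tested.

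Over the 12297 heart genes with a known transcript length, the fold change for training in vehicle mice fell with length (Spearman rho -0.54, across genes, which are not independent replicates). Against a median of 3007 bases, the transcript of Lyve1 is 2607 bases long, that of Lyz2, the shortest of the 7 and the 1 with an estimate above 0, 1057, that of Mrc1 5318 and that of Cd163 4434. The rho was -0.38 for training in knockout mice and 0.38 for knockout in trained mice, the comparisons in which Lyz2 and in which Mrc1, Cd163 and Lyve1 had positive estimates at an unadjusted p under 0.05. In lung rho was -0.57 for training in knockout mice, -0.59 for knockout in trained mice and -0.41 for the difference between the training effects. It was -0.02 there for training in vehicle and for knockout in sedentary mice. In liver and fat rho lay between -0.15 and 0.21. The part of length in the marker values was not tested in any tissue.

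In the other heart comparisons limma called 0 of 7 markers. Training in knockout mice called 0.0223% of genes, and 1 marker had an unadjusted p under 0.05, against 11.8% of all genes. This was Lyz2, at 112, 119, 111, 127 and 105 CPM in trained knockout hearts, against 89.3, 91.4, 99.6, 95.2 and 80.5 CPM in sedentary knockout hearts (log2 0.33, SE 0.07; limma adjusted p = 0.0581). All trained knockout hearts lay above all sedentary knockout hearts, as in 1.03% of all genes. Lyve1 averaged 16.8 ± 1.46 CPM in trained knockout and 19.1 ± 3.41 CPM in sedentary knockout hearts (log2 -0.17, SE 0.10; limma adjusted p = 0.536).

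Knockout in trained mice called 0.52% of genes (0.163% higher and 0.357% lower), and 3 markers had an unadjusted p under 0.05, all higher, against 15.1% of all genes (6.9% higher). Mrc1 stood at 23.5, 19.9, 20.6, 22.02 and 19.3 CPM in trained knockout hearts, against 16.5, 14.3, 18.9, 17.6 and 17.8 CPM in trained vehicle hearts (log2 0.29, SE 0.09; limma adjusted p = 0.124). The groups did not overlap, as in 0.87% of all genes. Cd163 averaged 17.97 ± 2.47 and 14.7 ± 2.83 CPM (log2 0.28, SE 0.10; limma adjusted p = 0.182), and Lyve1 averaged 16.8 ± 1.46 and 13.7 ± 1.47 CPM (log2 0.27, SE 0.10; limma adjusted p = 0.194). All 7 estimates were above 0, with a median of 0.21, against 0.00 over all genes, and those of Timd4 and Vsig4 rest on few reads. Knockout in sedentary mice, like the contrast of the training effects, called 0% of genes, with 1 marker each at an unadjusted p under 0.05, against 6.54% and 8.06% of all genes. These were Lyz2 at -0.15 (SE 0.07; limma adjusted p = 0.742) for the knockout and Mrc1 at 0.32 (SE 0.13; limma adjusted p = 0.589) for the difference. edgeR on estimated reads also called 0 markers in these 4 comparisons.

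**Figure D5:**
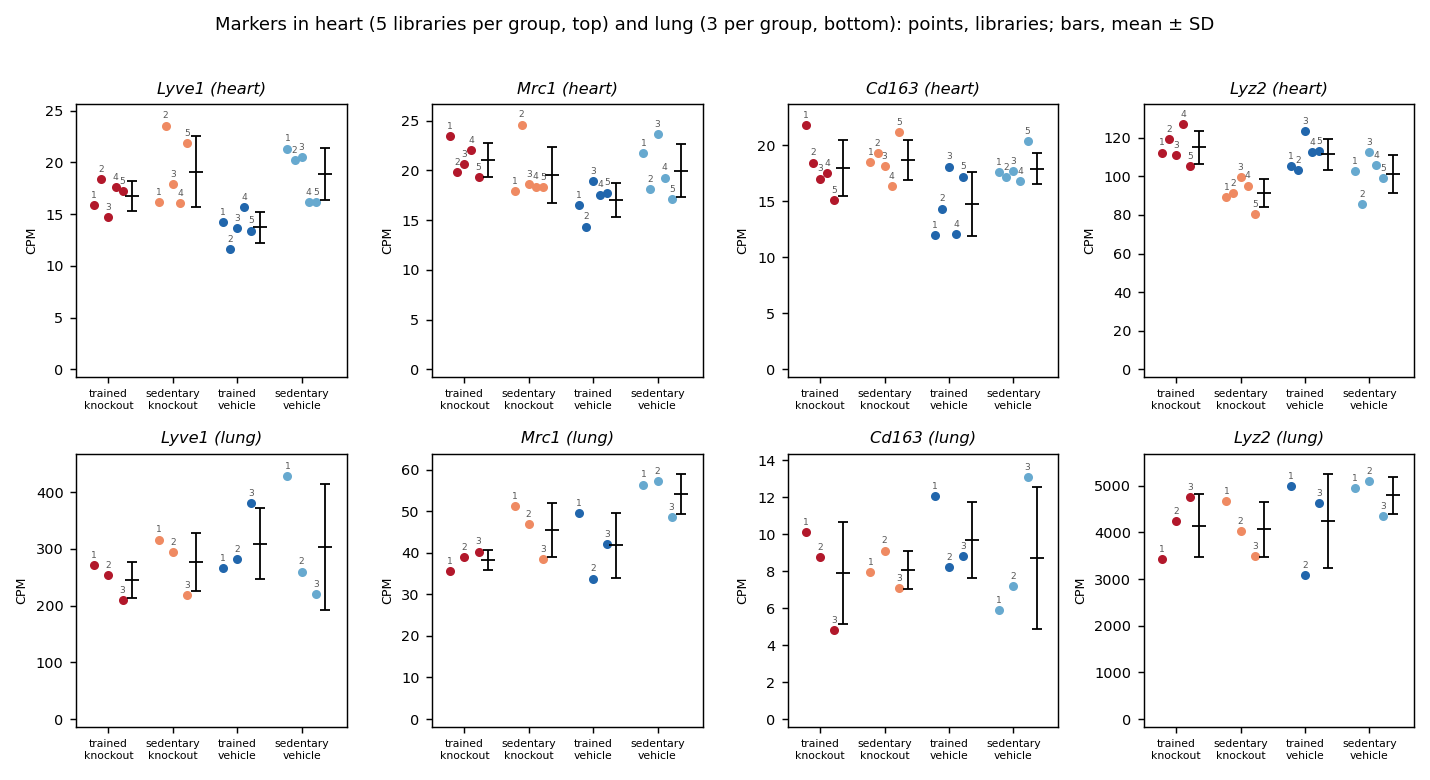
CPM of Lyve1, Mrc1, Cd163 and Lyz2 in 20 heart libraries (top) and 12 lung libraries (bottom) by group (points, with the replicate number above each; bar, mean ± SD). In heart every trained vehicle point of Lyve1 (11.6 to 15.7 CPM) lies below every sedentary vehicle point (16.2 to 21.3 CPM); in lung the 2 groups of each comparison overlap for all 4 genes.

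In lung, edgeR called 0 of 8 markers in each of the 5 comparisons, and DESeq2 also called 0, against 1.02 to 2.6% of the genes to which it gave an adjusted p. Over all genes 0.204% were called for training in vehicle mice (0.0186% higher and 0.186% lower) and 0% in the other 4 comparisons. In training in vehicle mice 2 markers had an unadjusted p under 0.05, against 12.8% of all genes. Mrc1 stood at 49.5, 33.8 and 42.1 CPM in trained vehicle lungs, against 56.4, 57.3 and 48.6 CPM in sedentary vehicle lungs (log2 -0.37, SE 0.14; edgeR adjusted p = 0.307). Timd4 stood at 0.556, 1.24 and 0.943 CPM in trained vehicle lungs, against 1.03, 1.49 and 4.37 CPM in sedentary vehicle lungs (log2 -1.33, SE 0.51; edgeR adjusted p = 0.300). The groups overlapped in both. In knockout in sedentary mice and in the difference between the training effects 1 marker each had an unadjusted p under 0.05, Timd4 in both, at -1.29 and 1.78, and in the other 2 comparisons 0 had, while 13.6 to 16.6% of all genes had in these 4.

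Sedentary vehicle lung 3 was the highest of the 12 lungs for Timd4, for Cd5l at 3.10 CPM and for Vsig4 at 2.67 CPM, genes that stood at 0.0501 to 1.66 CPM and 0.0439 to 0.744 CPM in the other 11. Without that library the log2 fold change of Cd5l for training in vehicle mice was 0.15 in place of -2.30. The same library had the highest sums of 12 lymphocyte genes, 412 CPM, and of 6 adipocyte genes, 411 CPM, and their part in these values was not tested. For Vsig4 the counts of 1 to 22 reads in the other 11 lungs do not resolve differences between groups.

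Marco, which alveolar macrophages express, averaged 6.83 ± 2.83 CPM in trained knockout, 6.32 ± 3.35 in sedentary knockout, 6.81 ± 0.813 in trained vehicle and 6.86 ± 3.39 in sedentary vehicle lungs (n = 3 each). Lyz2 averaged 4139 ± 675, 4066 ± 586, 4236 ± 1010 and 4796 ± 399 CPM in the same order of groups, and Lyve1 averaged 245 ± 32.3, 276 ± 51.1, 309 ± 62.2 and 303 ± 111 CPM. Adgre1 ranged from 10.99 to 19.4 CPM and Cd163 from 4.82 to 13.1 CPM over the 12 lungs, with no group apart from another. The sum of 12 lymphocyte genes was 70.9 to 130 CPM in trained vehicle lungs, against 137 to 412 CPM in sedentary vehicle lungs. Over the 12 lungs Lyz2 was most like Chil3 and the surfactant gene Sftpa1 (r = 0.93 each), and Mrc1 was most like Atp6v0d2 (r = 0.94) and Lamp3 (r = 0.93). Chil3 and Atp6v0d2 are genes of alveolar macrophages, and Sftpa1 and Lamp3 are genes of type II epithelium.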

How the data were processed

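Per the labels, RNA came from a Trizol and RNeasy extraction and was sequenced on Illumina libraries. The submitters' processing notes name Partek, STAR 2.7.8a and 2 builds, GRCm39 and mm10, without their roles. The labels describe every table as CPM, but no table sums as CPM would. The deposited liver and heart tables hold a scaled signal, reads divided by 1 factor per library: their columns sum to 14840727 to 18537114, and 80.9 to 83.7% of values from 0.05 to 100 are whole multiples of a step of the library, within 0.02 reads. That step gave the estimated reads. The deposited fat and lung tables hold expected counts per transcript, which were summed per symbol and rounded.

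Liver and heart values were divided by 1 factor per tissue, genes averaging 1 or more entered the test, and log2(value + 1) was fitted by limma 3.58.1 with trended variance, so that fold changes of low genes are understated. Fat and lung were fitted with edgeR 4.0.16 (TMM factors, filter by group, quasi-likelihood test). For edgeR, the SE was taken as the absolute fold change over the root of the F statistic. A mean per group in 1 model per tissue gave 5 comparisons, 20 in all, adjusted by Benjamini-Hochberg over all genes tested. All programs ran in R 4.3.3. The main fit of each tissue was tested on simulated data for 1 comparison, knockout in trained mice. The other comparisons and the alternatives were not. Of 100 genes changed 1.5-fold, 63 were recovered in liver, 86 in heart, 28 in fat and 22 in lung. Of 100 changed 2-fold, 88, 97, 70 and 85 were recovered. Unchanged genes called numbered 6, 12, 5 and 11. The changed genes were drawn from those averaging at least 2 CPM, each with its own spread, and no mixed tissue was simulated. Markers below that level, such as Timd4 and Vsig4 in heart (medians 1.41 and 1.64 CPM), were not covered. The rates are averages over the genes drawn, and recovery of the markers themselves may be lower. A marker not called, in fat and lung above all, may thus still have changed.

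The members and the gene lists were chosen with earlier results of these data known. Named were all 10 markers, up to 4 called genes per list by smallest p, and the genes most like a marker by Pearson r of log2 level, leaving out predicted genes and pseudogenes. Some called genes of the lists are not reported here. The alternatives were a pseudocount of 0.1, edgeR on estimated reads, DESeq2 1.42.0, RLE factors, no filter, only the compared groups, the replicate number as a block, and fits without libraries of mixed tissue or without each library. Intervals were not computed: SDs and SEs carry the error, and 3 reads correspond to 0.0841 to 0.242 CPM per library.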

Additional observations from a re-analysis of the deposited data

Results flagged for a closer look

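Among 73 groups of 5 libraries, 7 had 1 library farther from the rest than expected within a group of that size. Chance flags about 1 in 20 such groups, or 3.65 here. In liver, Marco in trained vehicle library 5 stood at 6.00 CPM, with the next at 2.02, and Adgre1 in sedentary knockout library 3 was low at 3.11 CPM. In heart, trained knockout library 5, which carries adipocyte transcripts at 155 CPM, was high for Marco at 0.495 CPM and for Cd5l at 0.275 CPM. These are 9 and 5 reads, in genes with 0 reads in 13 of 20 hearts each and not tested there. The rate of 1 in 20 was not checked at such low counts. Also in heart, Adgre1 in trained knockout library 2 was low at 5.38 CPM, Cd163 in sedentary vehicle library 5 was high at 20.4 CPM, and Mrc1 in sedentary knockout library 2 was high at 24.6 CPM, with the next at 18.6.

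In fat every trained knockout library lay below every sedentary knockout library for Lyve1, while every trained vehicle library lay above every sedentary vehicle library. The difference between the training effects was -1.50 on the log2 scale (edgeR adjusted p = 0.0555). Training in vehicle mice went with Lyve1 at 0.726 of the sedentary mean in heart and 1.94 times the sedentary mean in fat, with no overlap between the groups of either tissue. For knockout in trained mice Mrc1 was at 1.24 times the trained vehicle mean in heart and at 0.655 of it in fat, again with no overlap in either. The differences between tissues were not tested, since the tables were normalized separately.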

How the results depend on the processing

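For knockout in trained livers the count of 2 called markers became 4 with the replicate block and 3 with edgeR on estimated reads. It became 1 with only the compared groups, 0 with no filter and 0 without trained knockout liver 2. It was 0 to 4 when each library was left out. For training in vehicle hearts the count of 1 became 0 without libraries carrying transcripts of another tissue, and it was 1 to 2 when each library was left out. For training in knockout hearts the count of 0 became 1 with the replicate block and was 0 to 1 when each library was left out. In fat the count for knockout in trained mice, 3, became 1 without libraries carrying transcripts of another tissue and was 0 to 4 when each library was left out. For training in vehicle fat the count of 0 became 5 with DESeq2, 4 with only the compared groups and 1 without those libraries. For training in knockout fat it became 1 with DESeq2. For the difference between training effects in fat it became 4 with DESeq2 and 1 without those libraries, and it was 0 to 2 when each library was left out. The other member counts kept their value or moved by at most 1.5 times. The causes were not tested.

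Same-numbered libraries did not deviate together on average over all genes (mean r -0.05, 0.03, -0.03 and 0.03 in liver, heart, fat and lung). Single pairs ranged from -0.52 to 0.29 in liver and from -0.50 to 0.44 in fat. Pairing by number was thus not shown, and these few pairs cannot exclude it. The replicate block is given here only.

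Estimates of 7 low genes and comparisons changed sign as libraries were left out. In fat, Vsig4 for training in knockout mice ranged from -0.96 to 0.27 (without sedentary knockout library 3), Clec4f for training in knockout mice from -1.51 (without trained knockout library 2) to 6.20, and Clec4f for knockout in trained mice from -1.49 (without trained knockout library 2) to 5.03. Clec4f for knockout in sedentary mice ranged from -0.27 (without sedentary knockout library 1) to 3.07, Timd4 for knockout in sedentary mice from -0.29 (without sedentary knockout library 3) to 1.03, and Marco for knockout in trained mice from -2.19 to 0.25 (without trained vehicle library 1). In lung, Cd5l for training in vehicle mice ranged from -2.79 to 0.15 (without sedentary vehicle library 3). Sign changes of estimates within 1 SE of 0 numbered 109.

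Counts over all genes moved with the tool. For knockout in trained livers 337 genes became 20 with no filter, 508 with only the compared groups and 172 without the mixed library. For training in vehicle hearts 1113 became 521 without the mixed libraries. For knockout in trained hearts 70 became 14 with no filter and 0 with only the compared groups, and for training in knockout hearts 3 became 6 with the replicate block. For knockout in trained fat 685 became 1964 with DESeq2, 418 with no filter and 1 without the mixed libraries, and for knockout in sedentary fat 86 became 918 with DESeq2, 33 with no filter, 12 with only the compared groups, 10 with the replicate block and 273 without them. With 0 genes by edgeR, DESeq2 gave 737 for training in vehicle fat, 553 for training in knockout fat and 701 for their difference, and only the compared groups gave 216 for the first. In lung, training in vehicle mice gave 33 with edgeR, 6 with only the compared groups, 12 with the replicate block and 405 with DESeq2, and the other comparisons 0 with edgeR and 71 to 294 with DESeq2. Apart from the fits that left out 1 library, whose counts over all genes are not given here, counts of 0 to 3 in liver and heart moved by at most 6 genes. Depth limits Vsig4, Cd5l and Timd4 in lung, which rest on few reads, and Marco in liver, where the low libraries do. It also limits Timd4 and Vsig4 in heart, with at most 37 and 49 reads per library. The same holds for Lyve1 in liver, at most 90 reads, and Clec4f in fat, at most 113.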
